A study of Mus musculus with 6 samples.

Results

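Ddit4, Ddit4l, Sesn1, Irs2, Gab1, Errfi1, Akt2 and Foxo6 were examined as genes that carry or restrain insulin, AKT and mTOR signalling. They were taken by gene name from a table of 2404 genes, in which all 8 were found, and all 8 passed the filter on low values that 2241 genes passed. The table came from RNA-seq of the hippocampus of 3 mice given CORT (corticosterone, the main glucocorticoid of rodents) and 3 mice given vehicle. The mice were male C57BL/6, aged 7 to 8 weeks at the start of treatment. CORT was injected subcutaneously at 40 mg/kg every day for 36 days, and the vehicle was water with DMSO and Tween. GEO's treatment label names cortisone for the CORT samples, whereas the study's methods give corticosterone. Only genes that the authors had called different between these same libraries are in the table, so a low p below does not count as separate evidence, and genes outside the table were not analysed here.

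Insulin and growth factors act through receptor tyrosine kinases at the cell surface. Adaptor proteins such as Irs2 and Gab1 dock on the activated receptors and recruit phosphoinositide 3-kinase, which switches on AKT kinases. AKT holds several FoxO transcription factors, though not all to the same degree, out of the nucleus. By inhibiting the TSC complex, AKT also lets the kinase mTOR drive protein synthesis and growth. Ddit4 and its paralogue Ddit4l act back on this route through the TSC complex, and sestrins such as Sesn1 restrain mTOR when amino acids are short or cells are stressed. Glucocorticoids are known to oppose insulin action in several tissues.

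The genes did not move in 1 direction. Ddit4, Errfi1, Irs2 and Sesn1 were higher in CORT hippocampus, by 81.2%, 81.0%, 36.5% and 25.8% in mean TPM (a transcript level scaled for transcript length and library total). Ddit4l, Foxo6, Gab1 and Akt2 were 60.7%, 33.6%, 29.7% and 17.7% lower. In none of the 8 did the CORT libraries overlap the vehicle libraries, and the two-sided exact permutation test then gave p = 0.1 for each, the smallest p that 3 against 3 libraries allow. All 8 passed limma on log2(TPM + 1) at an adjusted p under 0.05, 4 in each direction. Over all genes tested 50.6% passed (25.8% higher and 24.7% lower) and 69.8% had no overlap (35.4% higher and 34.4% lower), and since the genes were chosen with such results known, their full count adds no evidence. With median scaling of the libraries the calls over all genes were 485 higher and 772 lower, in place of 579 and 554, and the 8 genes kept their calls. Those medians were taken over the tested genes alone, all of which the authors had called different. Log2 fold changes below are CORT minus vehicle of log2(TPM + 1), so that for genes with low TPM they are smaller than the change itself.

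**Figure D1:**
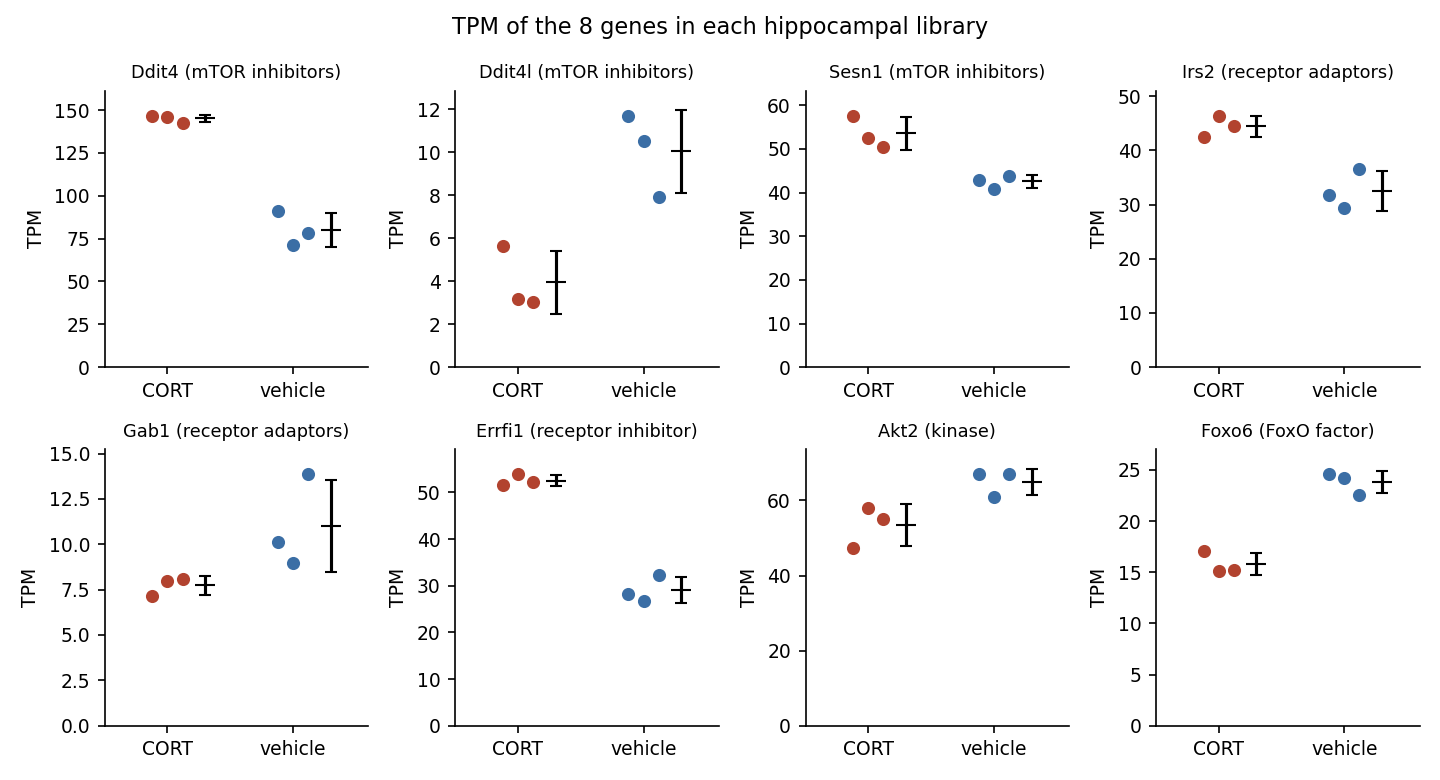
TPM of the 8 genes, 1 panel per gene with its role. Points are the 3 CORT libraries (red) and the 3 vehicle libraries (blue), and the bars beside them are the mean ± SD. The groups do not overlap in any panel, with the widest gap for Ddit4 (51.7 TPM) and the narrowest for Gab1 (0.92 TPM).

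The start regions of the genes that rose the most and of the gene that fell the most are given for comparison. RefSeq promoter windows of the mouse build GRCm38.p6, from 250 bases before a transcript start to 50 after it, were found for 7 of the 8 genes (13 windows, several genes having more than 1 start). The build differs from that of the expression table, so these coordinates belong to the windows alone. Capitals mark the CCAAT box (ATTGG on the other strand), the TATA box TATAAA, the E-box CACGTG and the cAMP response element TGACGTCA.
Ddit4 (chr10:59951721-59952020, minus strand): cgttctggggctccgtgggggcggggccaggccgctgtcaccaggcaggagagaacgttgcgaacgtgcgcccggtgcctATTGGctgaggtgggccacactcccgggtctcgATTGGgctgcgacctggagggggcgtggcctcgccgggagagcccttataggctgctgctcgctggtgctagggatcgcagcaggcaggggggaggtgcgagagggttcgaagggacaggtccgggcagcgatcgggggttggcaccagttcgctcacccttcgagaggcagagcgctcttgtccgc
Errfi1 (chr4:150854820-150855119, plus strand): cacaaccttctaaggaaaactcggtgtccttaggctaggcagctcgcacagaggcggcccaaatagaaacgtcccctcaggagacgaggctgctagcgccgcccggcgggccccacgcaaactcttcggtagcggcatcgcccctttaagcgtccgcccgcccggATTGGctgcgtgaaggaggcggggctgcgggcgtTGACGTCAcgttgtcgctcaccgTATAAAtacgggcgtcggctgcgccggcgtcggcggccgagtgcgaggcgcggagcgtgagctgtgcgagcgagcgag
Irs2 (chr8:11008880-11009179, minus strand): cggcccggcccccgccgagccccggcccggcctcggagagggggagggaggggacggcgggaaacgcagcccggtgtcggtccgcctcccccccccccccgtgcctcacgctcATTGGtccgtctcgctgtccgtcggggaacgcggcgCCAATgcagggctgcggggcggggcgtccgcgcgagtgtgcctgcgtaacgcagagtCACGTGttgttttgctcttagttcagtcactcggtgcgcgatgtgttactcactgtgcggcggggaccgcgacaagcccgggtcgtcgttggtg
Ddit4l (chr3:137623422-137623721, plus strand): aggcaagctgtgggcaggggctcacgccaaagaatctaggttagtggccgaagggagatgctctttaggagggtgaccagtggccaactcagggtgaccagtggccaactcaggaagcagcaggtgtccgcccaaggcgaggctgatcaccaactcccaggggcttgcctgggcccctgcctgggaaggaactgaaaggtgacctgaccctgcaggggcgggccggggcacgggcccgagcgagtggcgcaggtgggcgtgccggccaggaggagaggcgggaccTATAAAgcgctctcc

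The Ddit4 window holds a pair of CCAAT boxes, 170 and 137 bases before the start, and the Ddit4l window holds none. Ddit4l has a TATAAA, 35 bases after the annotated start. Errfi1 has a CCAAT box, a TATAAA and the cAMP response element TGACGTCA, while Irs2 has CCAAT boxes on either strand and the E-box CACGTG. On both strands, CCAAT was found in 37.4% of all 32851 windows of this length, TATAAA in 13.6%, CACGTG in 7.15% and TGACGTCA in 1.79%. The full palindromic glucocorticoid receptor site, AGAACA and its reverse complement around a short spacer, was in none of the 13 windows and in 3 of all windows. A single arm of it, AGAACA, which every full palindrome also contains, was likewise in none of the 13 windows, against 19.0% of all windows. The FoxO motif GTAAACA was in 1 of them, a Sesn1 window, and in 3.65% of all windows. These are matches of letters in short windows, and the motifs were chosen with the sequences in view. The 13 windows came from 7 genes, and those of Gab1 overlap, so they are not separate observations.

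Among the mTOR inhibitors, Ddit4 and Sesn1 were higher in CORT hippocampus and Ddit4l was lower. Ddit4 (ENSMUSG00000020108), a stress-responsive protein that inhibits mTOR through the TSC complex, had 147, 146 and 143 TPM in the CORT libraries, against 90.9, 71.2 and 78.2 TPM in the vehicle libraries. The CORT libraries lay close together, with a coefficient of variation of 1.54%, whereas that of the vehicle libraries was 12.5%. In limma the log2 fold change was 0.86 with an SE of 0.08 and an adjusted p of 0.000217, rank 83 from the top of the 2241 genes tested.

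Ddit4l (ENSMUSG00000046818), the paralogue of Ddit4 and likewise an inhibitor of mTOR, had 5.63, 3.19 and 3.03 TPM in the CORT libraries, against 11.7, 10.5 and 7.93 TPM in the vehicle libraries. CORT replicate 1 was the highest of its group, and it still lay below vehicle replicate 3, the lowest of the vehicle libraries. Ddit4l fell by 1.18 on the log2 scale (limma SE 0.21, adjusted p = 0.00351), rank 11 from the bottom. With a pseudocount of 0.1 in place of 1 it was -1.36, and without single libraries it ranged from -1.41 to -1.05.

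Sesn1 (ENSMUSG00000038332), a sestrin, had 57.6, 52.6 and 50.4 TPM in the CORT libraries, against 42.9, 40.9 and 43.9 TPM in the vehicle libraries. Its rise was the smallest of the 4, 0.32 on the log2 scale (limma SE 0.07, adjusted p = 0.0107).

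Between the paralogues, the balance moved towards Ddit4. The ratio of Ddit4 to Ddit4l TPM was 26.1, 45.8 and 47.1 in the CORT libraries, against 7.77, 6.76 and 9.86 in the vehicle libraries. On the log2(TPM + 1) scale the ratio was 4.92 ± 0.38 in CORT and 2.88 ± 0.25 in vehicle (SD, n = 3 each), a difference of 2.04 (SE 0.27, two-sided exact permutation test, p = 0.1, the smallest possible). The lowest CORT ratio was above the highest vehicle ratio. Since each paralogue had already separated the groups, in opposite directions, this separation and its p were fixed and add no evidence. Ddit4 was the more abundant paralogue in every library, and the summed TPM of both genes was 152, 149 and 146 in the CORT libraries, against 103, 81.7 and 86.1 in the vehicle libraries. The sum thus followed Ddit4 and not Ddit4l.

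The receptor adaptors also moved apart. Irs2 (ENSMUSG00000038894), which links the insulin and insulin-like growth factor receptors to phosphoinositide 3-kinase, had 42.4, 46.4 and 44.5 TPM in the CORT libraries, against 31.8, 29.3 and 36.5 TPM in the vehicle libraries. All CORT libraries were above vehicle replicate 3, the highest of its group, and Irs2 rose by 0.44 on the log2 scale (limma SE 0.09, adjusted p = 0.00676).

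Gab1 (ENSMUSG00000031714), a docking protein of the epidermal growth factor and hepatocyte growth factor receptors, had 7.15, 7.98 and 8.07 TPM in the CORT libraries, against 10.2, 8.99 and 13.9 TPM in the vehicle libraries. The vehicle libraries were spread widely (coefficient of variation 23.2%) and vehicle replicate 3 stood highest. Gab1 fell by 0.44 on the log2 scale (limma SE 0.15, adjusted p = 0.0363). Without vehicle replicate 3 the value was -0.27, and the test was passed only when vehicle replicate 2 was the library left out, the adjusted p reaching 0.0921 without CORT replicate 1.

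The ratio of Irs2 to Gab1 TPM was 5.93, 5.81 and 5.51 in the CORT libraries, against 3.14, 3.26 and 2.63 in the vehicle libraries. The log2 ratio, with 1 added to each TPM, was 2.38 ± 0.05 in CORT and 1.50 ± 0.14 in vehicle (SD, n = 3 each), a difference of 0.88 (SE 0.09, two-sided exact permutation test, p = 0.1, the smallest possible). Irs2 and Gab1 each separated the groups, in opposite directions, so the separation of their ratio and its p were fixed and add no evidence. Without vehicle replicate 3 the difference was 0.80. The fold changes of the adaptors thus lay between those of Ddit4 and Ddit4l, with 1 adaptor in each direction.

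**Figure D2:**
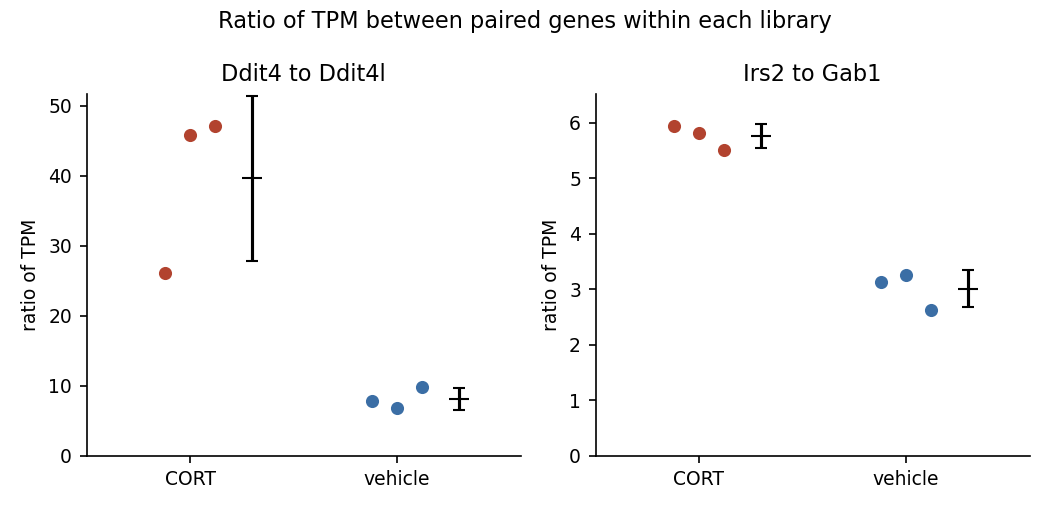
Ratio of TPM within each library, Ddit4 to Ddit4l on the left and Irs2 to Gab1 on the right. Red points are CORT libraries, blue points are vehicle libraries, and bars are the mean ± SD. The lowest CORT ratios (26.1 and 5.51) lie above the highest vehicle ratios (9.86 and 3.26).

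Errfi1 (ENSMUSG00000028967) encodes a feedback inhibitor that binds the kinase domain of epidermal growth factor receptors. It had 51.6, 53.9 and 52.1 TPM in the CORT libraries, against 28.1, 26.7 and 32.2 TPM in the vehicle libraries. It rose by 0.84 on the log2 scale (limma SE 0.08, adjusted p = 0.000217), close in size to that of Ddit4 and 3 ranks below it.

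Akt2 (ENSMUSG00000004056), the AKT kinase best known for insulin-stimulated glucose uptake, had 47.2, 57.9 and 55.2 TPM in the CORT libraries, against 66.9, 60.9 and 67.0 TPM in the vehicle libraries. CORT replicate 2 came within 3.00 TPM of vehicle replicate 2, so the groups were separate by little. Akt2 fell by 0.28 on the log2 scale (limma SE 0.09, adjusted p = 0.0289). Leaving out CORT replicate 1, vehicle replicate 1 or vehicle replicate 3 lost the call, at an adjusted limma p of 0.0843, 0.0796 or 0.0615.

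Foxo6 (ENSMUSG00000052135), a FoxO transcription factor known for its expression in hippocampal neurons, had 17.1, 15.1 and 15.2 TPM in the CORT libraries, against 24.6, 24.3 and 22.6 TPM in the vehicle libraries. Foxo6 averaged 15.8 ± 1.11 TPM in CORT and 23.8 ± 1.09 TPM in vehicle (SD, n = 3 each), a gap several times the spread in either. Foxo6 fell by 0.56 on the log2 scale (limma SE 0.09, adjusted p = 0.00175), and the value ranged from -0.62 to -0.53 without single libraries. Transcript GC content, the share of G and C bases, moved with this value. The Foxo6 transcript has 69.1% GC, and only 3 tested genes, Foxo6 included, reach that. After removal of a spline of GC content from each library the Foxo6 value was -0.24 (limma adjusted p = 0.0268), and after removal of a straight line it was -0.26 (limma adjusted p = 0.0535).

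The paralogues Ddit4 and Ddit4l moved against the more frequent direction of genes with their GC content. Ddit4 rose with a transcript of 57.9% GC. Of the 209 other tested genes within 1 point of it, 14.8% were higher and 40.7% lower. Ddit4l fell with a transcript of 46.3% GC, where 31.4% of 175 such genes were higher and 13.7% lower. After the spline correction the log2 fold changes were 0.96 for Ddit4 and -1.32 for Ddit4l, each farther from 0. Irs2, at 56.6% GC, likewise moved to 0.52, while Errfi1, Sesn1 and Akt2 moved to 0.72, 0.25 and -0.23 and Gab1 to -0.46. All 8 passed after the spline.

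**Figure D3:**
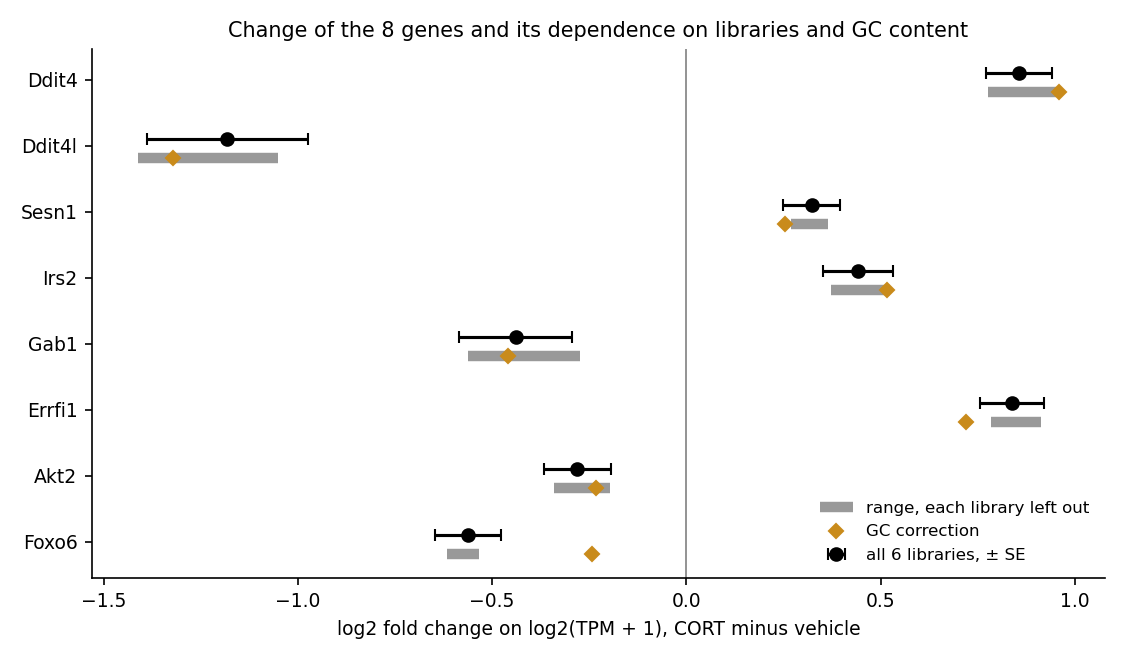
Log2 fold change, CORT minus vehicle, of each gene on the log2(TPM + 1) scale. Black points are the values from all 6 libraries ± SE, grey bars span the values with each library left out in turn, and diamonds are the values after the spline correction for GC content. Ddit4, Sesn1, Irs2 and Errfi1 stay above 0 and the other genes below 0 throughout, and Foxo6 is the gene whose diamond lies far outside its grey bar, at -0.24 against -0.56.

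The order of the levels also differed between the groups. In CORT hippocampus Ddit4 was the highest at 145 ± 2.23 TPM (SD, n = 3), followed by Sesn1, Akt2 and Errfi1 at means of 53.6, 53.4 and 52.5 TPM, whose library ranges overlapped. Irs2, Foxo6, Gab1 and Ddit4l came below, at 44.4, 15.8, 7.73 and 3.95 TPM, with no overlap between neighbours. In vehicle hippocampus Ddit4 was followed by Akt2, Sesn1, Irs2 and Errfi1 at means of 65.0, 42.6, 32.6 and 29.0 TPM, and only the ranges of Irs2 and Errfi1 overlapped among these. Foxo6 stood at 23.8 TPM, and the ranges of Gab1 and Ddit4l, the lowest genes, overlapped. Akt2 therefore stood clear of Sesn1 in vehicle and not in CORT, and Gab1 stood clear of Ddit4l in CORT and not in vehicle.

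The closest profiles in the table were sought for the paralogues, by the root mean square difference over the 6 libraries of log2(TPM + 1) less the vehicle mean. For Ddit4 these were Txnip, a thioredoxin inhibitor that also restrains glucose uptake, Slc2a1, the glucose transporter of the blood-brain barrier, and the receptor Tlr7, with differences of 0.0733, 0.0761 and 0.0788 against a median of 0.655 over all other genes. Slc2a1 had 132, 141 and 132 TPM in the CORT libraries, against 79.5, 62.4 and 79.2 TPM in the vehicle libraries. Txnip, which is also on the pathway list described next, rose by 0.87 on the log2 scale. Tlr7 was at means of 1.72 TPM in CORT and 0.593 TPM in vehicle. At such levels the added 1 shrinks the log2 change, and the closeness of Tlr7 to Ddit4 depends on it. Since the closest genes were picked, their differences lie below the median by construction. For Ddit4l the closest were Ece1, the endothelin-converting enzyme, Lag3 and the transcription factor Nkx2-2, with differences of 0.249, 0.271 and 0.271 against a median of 0.931. Ece1 had 27.1, 17.3 and 18.4 TPM in the CORT libraries, against 40.6, 39.7 and 44.6 TPM in the vehicle libraries, so that CORT replicate 1 was the highest of its group for Ece1 as for Ddit4l.

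Of 168 other genes of the same pathway, 35 were in the table and were tested, 12 were higher, 6 were lower and 17 did not pass. That share of calls, 51.4%, was near the 50.6% of all genes tested, and the median log2 fold change was 0.19 for the pathway genes and 0.05 for all genes. None of 11 paralogues of Akt2, Sesn1, Irs2, Foxo6 and Gab1 on that list was in the table, so no comparison within those families was made here.

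Of 6 genes tested among the receptors, their ligands and the proteins that bind those ligands, 4 were lower, against 24.7% of all genes tested. They were 2 of 4 receptors and 2 of 2 ligands and binding proteins, pooled here from separate lists. Those lists were chosen with earlier results of these data known, so the share adds no evidence. Fgfr1 and Pdgfrb, at 0.15 and -0.23 on the log2 scale, did not pass. Erbb3, a neuregulin receptor, had 0.96, 1.12 and 0.94 TPM in the CORT libraries, against 3.80, 2.90 and 4.65 TPM in the vehicle libraries (-1.24 on the log2 scale, limma adjusted p = 0.000737). Fgfr2, a fibroblast growth factor receptor, had a log2 fold change of -0.74. The insulin-like growth factor binding proteins Igfbp5 and Igfbp6 had log2 fold changes of -0.29 and -0.48. Igfbp5 lost its call without CORT replicate 2 or 3 or vehicle replicate 1 (limma adjusted p up to 0.0817), and that of Igfbp6 with the spline correction (0.0509).

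The adaptor Sh2b2, which binds the activated insulin receptor, rose as Irs2 did and by more. It had 12.9, 14.6 and 10.2 TPM in the CORT libraries, against 5.44, 4.55 and 4.14 TPM in the vehicle libraries (1.24 on the log2 scale, limma adjusted p = 0.000458). The docking protein Dok5 and Spry2, an inhibitor of receptor signalling, fell, with log2 fold changes of -0.63 and -0.40. Both were listed here with the receptor inhibitors. Errfi1 was thus the only gene listed and tested as a receptor inhibitor that passed as higher. Socs3 and Lrig1, at 0.68 and 0.15 on the log2 scale, missed the threshold (limma adjusted p = 0.0758 and 0.215).

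The kinases Sgk1 and Sgk3, relatives of AKT, rose by log2 fold changes of 1.23 and 2.07, whereas Akt2 fell. Sgk1 lost its call without CORT replicate 1 or 2 or vehicle replicate 1 (limma adjusted p up to 0.0820). Castor1, the arginine sensor that holds mTOR back when arginine is low, rose beside Ddit4 and Sesn1. It had 7.54, 7.95 and 8.19 TPM in the CORT libraries, against 4.10, 3.70 and 3.48 TPM in the vehicle libraries (0.90 on the log2 scale, limma adjusted p = 0.000518). Of 4 amino acid sensing genes tested, Castor1 was the only 1 called. The others, Nprl3, Fnip1 and Fnip2, had log2 fold changes of 0.16, 0.28 and 0.25. Deptor, an inhibitor within the mTOR complexes, stood at -0.23 on the log2 scale and missed the threshold (limma adjusted p = 0.16). The kinase gene Stk11, at -0.11, did not pass (limma adjusted p = 0.113), and neither did any of 4 PI3K and lipid phosphatase genes tested.

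Among mTOR targets, Lpin1, a lipid phosphatase, rose by a log2 fold change of 0.43. The kinase gene Rps6kb1 had one of 0.27 (limma adjusted p = 0.0372), which was 0.05 with the spline correction and did not pass with quantile normalization or with any library other than vehicle replicate 3 left out. Of 6 genes tested on the list of FoxO factors and genes linked to them, 5 were higher, against 25.8% of all genes tested. Foxk1, at 0.20 on the log2 scale, did not pass. That list held 14 genes and was chosen with earlier results of these data known, so the share adds no evidence. Depp1, a FoxO target, had 3.96, 4.02 and 4.24 TPM in the CORT libraries, against 0.88, 0.83 and 0.48 TPM in the vehicle libraries (1.56 on the log2 scale, limma adjusted p = 0.000125). The others were Pdk4, Klf15, Cited2 and Bcl6, with log2 fold changes of 0.88, 0.66, 0.37 and 0.32. Several of these, Klf15 among them, are also known to be induced by glucocorticoids.

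**Figure D4:**
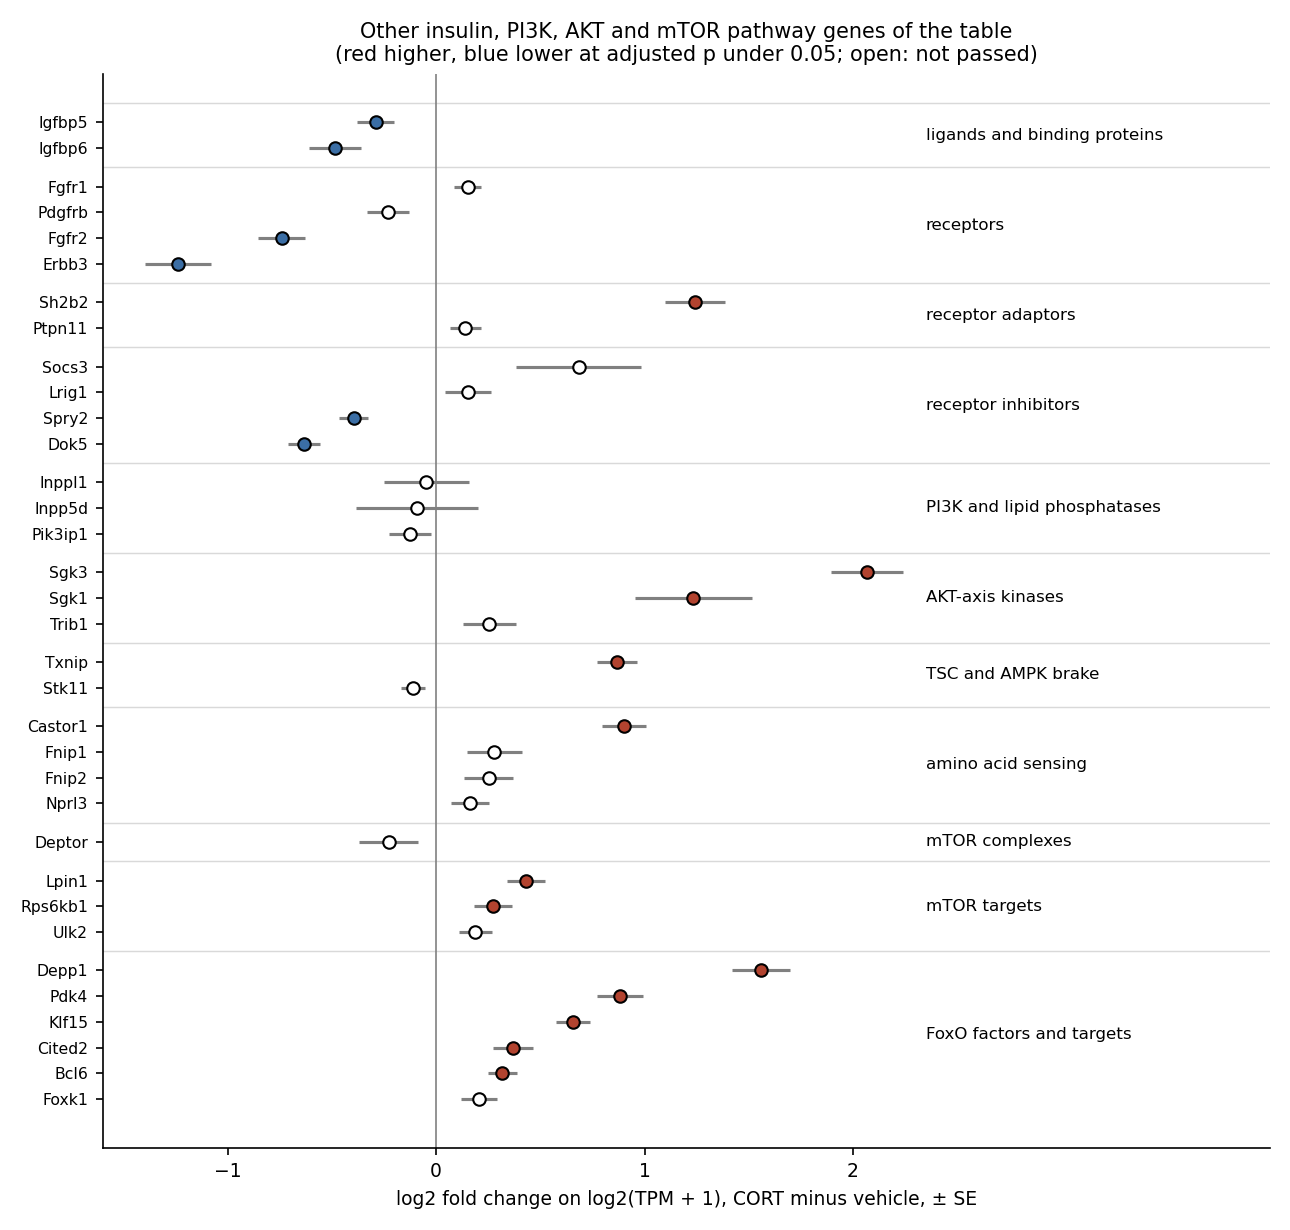
Log2 fold change, CORT minus vehicle, ± SE of 34 other pathway genes that were tested, grouped by role. Red points were higher and blue points lower at an adjusted p under 0.05, and open points did not pass. The 4 called receptor and ligand-binding genes lie below 0, and the 5 called genes of the FoxO group lie above it, led by Depp1 at 1.56.

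Markers of other cell types moved with these values, and fewer cells of a type cannot be told apart from less RNA per cell in bulk tissue. Over all genes tested, 24.7% were lower and 25.8% higher. The 7 endothelial markers in the table, of 10 listed, summed to between 53.0 and 55.6 TPM in the CORT libraries, against 93.8 to 99.9 TPM in the vehicle libraries. Of these, 5 were lower and 2 did not pass, and most of the fall in the sum came from 1 gene. For microglia 4 of the 5 in the table were lower, with sums of 89.1 to 114 TPM in CORT and 144 to 164 TPM in vehicle. Sox10, listed here with the oligodendrocyte precursor markers, was lower, and the other marker of that list in the table did not pass. Both summed to 23.4 to 26.2 TPM in CORT and 38.0 to 50.4 TPM in vehicle, and most of the fall came from Sox10. Of the astrocyte markers 1 of 4 in the table was lower, with sums of 1485 to 1503 TPM in CORT and 1623 to 1697 TPM in vehicle, and of the oligodendrocyte markers 1 of 2 was higher, with sums of 648 to 912 TPM in CORT and 494 to 673 TPM in vehicle. Folr1, the choroid plexus marker in the table, did not pass and ranged from 2.10 to 22.5 TPM in CORT and from 1.33 to 3.20 TPM in vehicle. Of 18 hippocampal subfield markers 6 were in the table, and the CA1 marker Wfs1 fell as Foxo6 did (means of 97.4 TPM in CORT and 131 TPM in vehicle, limma adjusted p = 0.00186). Pan-neuronal and interneuron markers were not in the table, and none of the 30 markers in it was at 0 in any library. The part of cell composition in the changes of the 8 genes was not tested.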

How the data were processed

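The authors trimmed paired-end reads with fastp, and RSEM, StringTie, HISAT2 and the build GRCm39 appear in the submitters' processing notes, without versions. The deposited table holds TPM values for 6 libraries, together with the authors' own fold (a ratio), log2 fold change and p-value, made with DESeq2, which were not used. All 2404 genes have a deposited p-value under 0.05. The column numbers, used here as replicate numbers, are not tied to the sample titles, and the control columns, which carry a genotype name, were taken as vehicle. TPM keeps no read number, so the depth is unknown.

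A gene was tested if 3 or more libraries had a TPM of 1 or more, on log2(TPM + 1) with limma 3.58.1 in R 4.3.3 (eBayes with trend and robust options), with Benjamini-Hochberg adjustment over 2241 genes and a threshold of 0.05. The step was tested on simulated data. GC content was that of the longest GENCODE M21 transcript (an earlier build, matched by gene identifier for 2238 genes), and the spline had 4 degrees of freedom. Python 3.11.15, pandas 2.3.3, numpy 2.4.6 and matplotlib 3.10.9 were used. The genes, lists and tests were chosen with earlier results of these data known. Named were the 8 genes, the called pathway genes, and the 3 nearest profiles of each paralogue. Pathway genes that did not pass were named after their values were seen. Values of 1 pathway gene and 1 cell type marker are not reported here, though both are in the counts.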

Additional observations from a re-analysis of the deposited data

How the results depend on the processing

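No paired analysis was possible because the replicate numbers in the titles share only 1 number between the groups and the table's columns are not tied to them. Under 8 alternatives (a pseudocount of 0.1, no filter, a mean TPM of at least 5, quantile normalization, median scaling, eBayes without its options, the spline GC correction and the straight-line one, which was chosen after seeing the data) the 8 genes gave 64 values, all in the direction reported. Of these, 63 passed, the exception being Foxo6 with the straight-line correction at -0.26 (adjusted p = 0.0535 from limma). With each library left out, 40 of 48 values passed. The 8 that did not pass were 5 of 6 for Gab1, whose log2 fold changes ranged over all 6 from -0.56 to -0.27, and 3 of 6 for Akt2, whose values ranged over all 6 from -0.34 to -0.20, and the cause was not tested. The values farthest from 0 were among those that passed. The number of genes changed was 1133, and 620 to 1187 with a library left out: 620 without vehicle replicate 1 and 715, 644 and 717 without CORT replicates 1, 2 and 3. Higher genes made up 51.1% of calls, and 38.6% with median scaling, which shifted the median of all genes by 0.05. Median scaling, quantile normalization and both GC corrections used only genes of the table, which the authors had called different. These genes hold 29.2% to 31.5% of the TPM of a library, so such settings do not normalize over the whole transcriptome. Called pathway genes numbered 18, and 15 to 25 with a library left out, the 25 without vehicle replicate 3, when 19 were higher in place of 12. Both ratios kept their direction under every alternative run. The unknown depth leaves the counting error of Ddit4l and Gab1, the genes with the lowest TPM, without a measure.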
